A study of Danio rerio with 2 samples.

Results

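Heat shock and chaperone genes were described in 575 cells sorted from wild-type zebrafish larvae aged 5 days, from the caudal hematopoietic tissue. This tissue is the niche in the tail where blood stem and progenitor cells lodge and multiply. Members were the rows of the count tables whose zebrafish gene name began with hsp, dnaja, dnajb, dnajc, bag or cct in its usual numbered form, with tcp1 and hsp70l added. This name rule gave 90 of 19955 gene IDs, with 88 present on plate 20 and 85 on plate 21. By name, 13 were induced heat shock genes and 75 were constitutive chaperones. The other 2, HSPG2 (the matrix proteoglycan perlecan) and HSPBAP1, share the prefix without being chaperones and entered neither class.

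Chaperones bind unfolded protein and help it fold, refold or reach the right compartment. HSP70 proteins work in cycles driven by ATP with J proteins (the dnaj genes), which deliver substrates, and with exchange factors such as the BAG and HSP110 proteins. HSP90 acts on near-native clients, and the ring-shaped TRiC complex, built of the CCT subunits and TCP1, folds actin and tubulin. The constitutive forms are made in every growing cell, whereas the induced forms are switched on by heat shock factor during heat or other protein damage and are also known to rise during enzymatic tissue dissociation and sorting.

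The samples were 2 plates of 384 wells of sorted hematopoietic stem and progenitor cells, plate 20 as replicate 1 and plate 21 as replicate 2, made with CEL-seq2, which counts molecular identifiers at the 3′ end of each transcript. Every plate held wells sorted as double (D) and as single (S), with both groups being wild type, at the same stage and with a sort day of 6 in the labels. The markers behind these words were not stated, so the comparison asks only how the 2 sort classes of each plate differ. Wells below 500 transcripts were left out. The cells kept were 189 double and 111 single cells on plate 20 and 186 double and 89 single cells on plate 21. Levels are CPM (counts scaled to a common total of transcripts) of the cells summed by plate and class. Because the method counts 3′ ends, levels can be set side by side between genes without division by length.

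The 4 sums held between 936808 and 2100851 transcripts, and the median cell held between 7170 and 9395. Markers of hematopoietic stem and progenitor cells (4 genes, none at 0) summed to 622 and 692 CPM in double cells, plate 20 before plate 21, against 619.8 and 558 CPM in single cells. Erythroid markers (6 genes) were far higher, at 17710 and 19303 CPM in double cells and at 27766 and 36867 CPM in single cells. Most of this came from the globin gene hbae3, at 14220 and 15824 CPM in double cells and at 22673 and 31489 CPM in single cells. Markers of the other cell types also differed between the classes. Epidermis markers (10 genes) were at 579.99 and 1077 CPM in double and at 3119 and 1624 CPM in single cells, and stroma markers (5 genes) at 397 and 410.2 CPM in double and at 2718 and 798 CPM in single cells. Muscle markers (8 genes) were at 29004 and 876 CPM in double and at 4531 and 14102 CPM in single cells. A double well of plate 20 stood apart with 249815 transcripts, 18.9% of them from muscle markers, and without it the double cells of plate 20 had 3605 CPM of muscle markers. The layout of plate 21 gives no well numbers and was read along rows, as on plate 20.

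The members together made up 1.64% of all transcripts, and a few genes carried most of that. The constitutive cytosolic HSP70 gene HSPA8 (ENSDARG00000068992) and the constitutive HSP90 gene HSP90AB1 (ENSDARG00000029150) held 54.8% of member transcripts, TRiC subunits 23.4% and the induced genes 7.80%. A mean of at least 100 CPM was reached by 18 members, while 45 members were seen in under 50 cells and DNAJC5B in none.

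**Figure D1:**
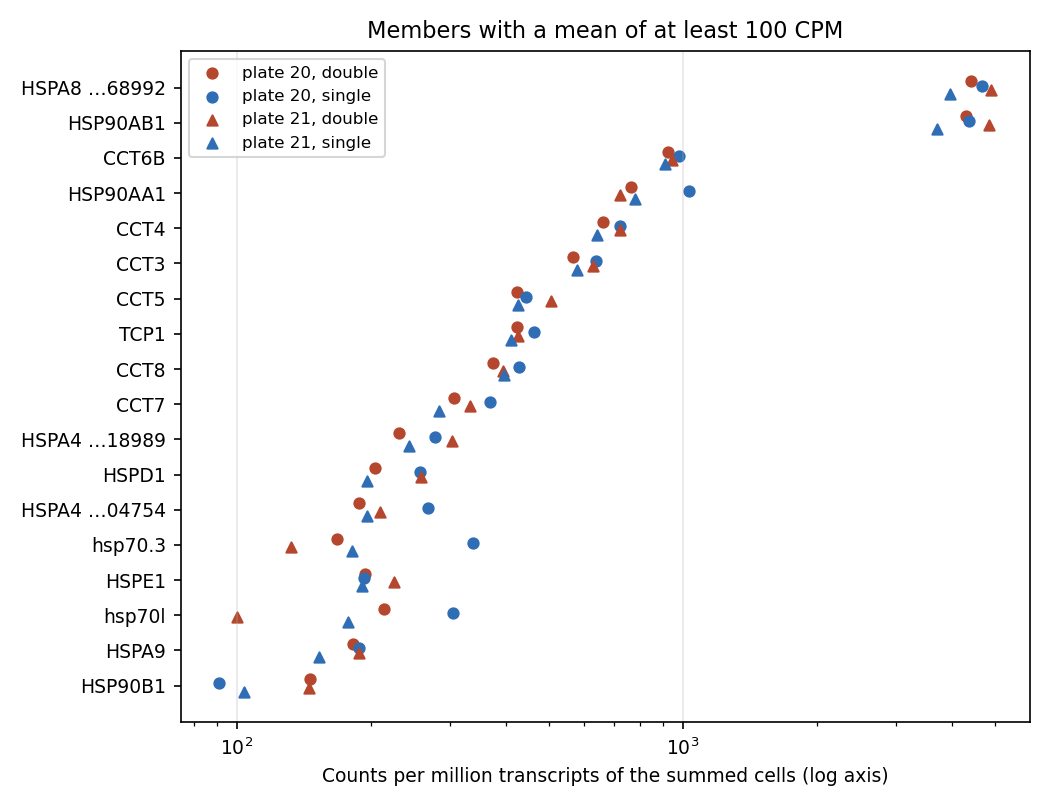
Level of the 18 members with a mean of at least 100 CPM, in CPM on a log axis, with one point for each of the 4 sums (red, double; blue, single; circles, plate 20; triangles, plate 21). HSPA8 and HSP90AB1 lie between 3699 and 4904 CPM, apart from all other members, and hsp70.3 and hsp70l spread more widely than the TRiC subunits.

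HSPA8 was at 4422 and 4904 CPM in double cells, plate 20 before plate 21 here and in all later pairs, and at 4678 and 3970 CPM in single cells. HSP90AB1 was at 4314 and 4847 CPM in double cells and at 4374 and 3699 CPM in single cells. Each had a transcript in nearly every cell, with 570 of 575 for HSPA8 and 569 for HSP90AB1. For both genes the ranges of the classes overlapped, with double cells above single cells on plate 21 and below them on plate 20. The order on plate 20 rested on the largest well, since without it double cells were above single cells there too, at 4863 CPM for HSPA8 and 4903 CPM for HSP90AB1. A second row named HSPA8 (ENSDARG00000037403) had transcripts in 4 cells only.

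Of the 8 TRiC rows, 7 were well measured and lay close together. CCT6B was highest at 923 and 942 CPM in double cells and at 977 and 909 CPM in single cells, followed by CCT4 with a mean of 686 CPM, CCT3 with 603, CCT5 with 451, TCP1 with 431, CCT8 with 399 and CCT7 with 323 CPM. CCT5, TCP1 and CCT8 overlapped in their ranges over the 4 sums. The row named cct2, another ring subunit, had transcripts in 4 cells.

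The HSP110-type exchange factor gene HSPA4 had 2 rows, with means of 264 CPM (ENSDARG00000018989) and 215 CPM (ENSDARG00000004754). The mitochondrial chaperonin genes HSPD1 (HSP60) and HSPE1 (its co-chaperonin HSP10), which are direct neighbours on the RefSeq assembly GRCz12tu, had means of 229 and 200.1 CPM, and HSPA9, the mitochondrial HSP70, one of 177 CPM. HSP90B1, the HSP90 of the endoplasmic reticulum (ER), had a mean of 121 CPM. The 30 J proteins were low, with a median member at 6.96 CPM, and the highest of them was DNAJC9, a J protein known to bind histones in human cells, at 72.5 CPM. Among the 6 BAG rows the highest was bag6, which takes part in the quality control of membrane proteins in human cells, at 68.7 CPM.

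The induced genes were led by HSP90AA1 (ENSDARG00000024746), the stress-inducible cytosolic HSP90 in human, which held 62.4% of the induced transcripts. It was at 766 and 723 CPM in double cells and at 1028 and 781 CPM in single cells. The heat-inducible HSP70 gene hsp70.3 (ENSDARG00000021924) was at 167 and 132 CPM in double cells and at 338 and 181 CPM in single cells. Its relative hsp70l (ENSDARG00000055723), a gene widely used in zebrafish as a heat shock reporter, was at 214 and 99.7 CPM in double cells and at 305 and 177 CPM in single cells. All 3 were lower in double than in single cells of the same plate. The classes did not overlap for HSP90AA1 and hsp70.3, and they overlapped for hsp70l, where double cells of plate 20 lay above single cells of plate 21.

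The remaining 10 induced members were rare. The HSP90 gene hsp90aa1.1, which acts in muscle in zebrafish, had 134.8 and 5 transcripts in double cells against 11 and 13 in single cells, and 89.6% of its transcripts in double cells of plate 20 came from the well of 249815. That well also held 98.6% of those of the HSP70 gene hspa1b, 97.7% of hspb9 and 95.7% of hspb9l (small heat shock proteins), 92.2% of BAG3 (a co-chaperone of muscle and stress) and 80.5% of HSPB1 (HSP27). The HSP70 gene hsp70.1 had 27 and 14 transcripts in double cells against 23 and 10 in single cells, and HSPH1 (HSP110) had 11 and 32 against 7 and 19. The sums of double cells held more transcripts on both plates, so these counts are not levels. Scaled for depth, the log2 folds, double over single, were below 0 for both genes under all 12 alternatives. They ran from −1.07 to −0.53 for hsp70.1 and from −0.85 to −0.12 for HSPH1, and neither gene was called. The J protein gene dnajb1b was seen in 23 cells and hspb11 in 7 cells. The genes hsp70.1 and hsp70.3 lie near each other on GRCz12tu with 1 gene between them, and since near-identical HSP70 copies can share reads, the division of counts between them is uncertain.

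Transcripts of the inducible HSP70 genes were concentrated in few cells. The 10% of cells with the most transcripts of a gene (58 cells) held 94.5% of hsp70l and 84.1% of hsp70.3 transcripts, against 28.3% for HSPA8 and 31.5% for HSP90AB1. HSP90AA1, with 53.1%, was near constitutive members of lower level such as HSPE1 with 50.8% and HSPD1 with 48.4%. The largest well alone held 63.6% of the hsp70l transcripts of double cells on plate 20, and without it these cells were at 90.1 CPM. For hsp70.3 the same well held 21.4%, and the level without it was 152 CPM.

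The share of a cell's transcripts from the 13 induced genes had a median of 0.0501% and 0.0398% in double cells, against 0.0665% and 0.0407% in single cells. The mean was 0.150% ± 0.250 (SD, n = 189) and 0.154% ± 0.464 (n = 186) in double cells, against 0.238% ± 0.426 (n = 111) and 0.253% ± 0.701 (n = 89) in single cells. The means were thus lower in double cells by a similar amount on the 2 plates, −0.0881 and −0.0984 percentage points, while the medians were nearly equal on plate 21. With transcripts summed over cells rather than averaged per cell, the differences were smaller, at −0.0359 and −0.0225 percentage points. The highest cell reached 2.03% and 5.09% among double cells, against 2.49% and 5.82% among single cells. No induced transcript was seen in 21 and 25 double cells, against 16 and 12 single cells. With 2 plates an exact permutation within plates could not give a two-sided p below 0.5, and the shares were not tested.

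The 75 constitutive genes took a much steadier share. It averaged 1.59% ± 0.504 and 1.63% ± 0.438 in double cells, against 1.48% ± 0.470 and 1.34% ± 0.473 in single cells (SD, same cells). The means were higher in double cells by 0.107 and 0.287 percentage points. For summed transcripts the difference on plate 20 was −0.0836 percentage points, and its sign rested on the largest well, without which it was 0.0722, from 1.62% in double and 1.55% in single cells.

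**Figure D2:**
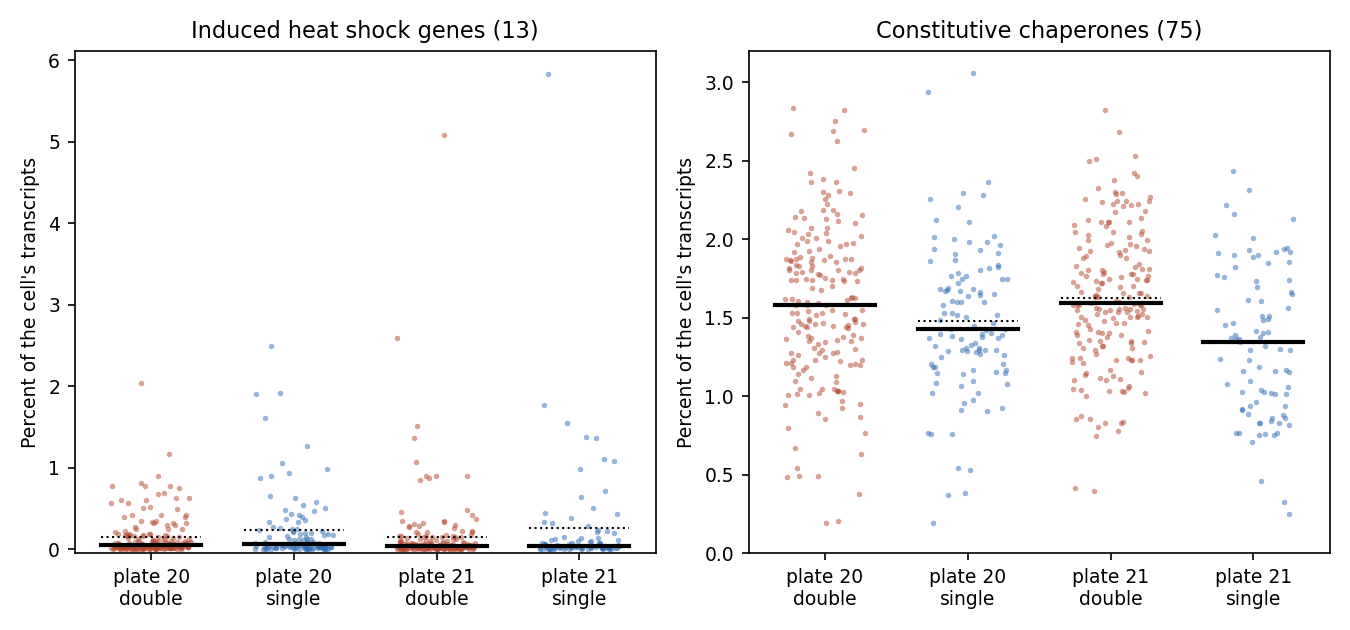
Percent of each cell's transcripts from the 13 induced genes (left) and the 75 constitutive genes (right), one point per cell, by plate and sort class (solid line, median; dotted line, mean). The induced share is near 0 in most cells with a tail up to 5.82%, whereas the constitutive share has means of 1.34 to 1.63%.

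Sparse counts made detection depend on depth, so each cell was also thinned to 2000 transcripts, leaving out shallower cells. A transcript of any inducible HSP70 was then seen in 39 of 163 double cells (23.9%, exact Clopper-Pearson 95% interval 17.6 to 31.2) and 33 of 97 single cells (34.02%, 24.7 to 44.3) on plate 20. On plate 21 it was seen in 27 of 174 double cells (15.5%, 10.5 to 21.8) and 11 of 80 single cells (13.8%, 7.07 to 23.3). Before thinning these shares were 39.7% of double and 45.9% of single cells on plate 20, and 29.03% of double and 31.5% of single cells on plate 21. The intervals of the classes overlapped on both plates, and they cover counting error only. For hsp70l alone they did not overlap on plate 20, where 17 of 163 double cells (10.4%, 6.19 to 16.2) and 24 of 97 single cells (24.7%, 16.5 to 34.5) had a transcript after thinning, whereas on plate 21 it was 8 of 174 double cells (4.60%, 2.01 to 8.86) and 5 of 80 single cells (6.25%, 2.06 to 13.99). Before thinning, hsp70l was seen in 21.2% of double and 33.3% of single cells on plate 20, and in 12.9% of double and 14.6% of single cells on plate 21. For any of the 13 induced genes the thinned share was 66.9% of double and 63.9% of single cells on plate 20, and 56.9% of double and 53.8% of single cells on plate 21, again with overlapping intervals. No cell type here is known to lack these genes, so no background share is given.

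The cells with the most induced transcripts were not spread evenly over cell clusters. Cells were clustered without the members, and 7 clusters were found. Cluster 4 (14 cells, led by the pigment cell genes TYRP1, TYR and MLPH, with a median of only 833 transcripts) and cluster 7 (14 cells, led by the fin and matrix genes and3, KERA and FN1, with 4.77% epidermis and 2.06% stroma marker transcripts) stood apart from the rest. Together they held 4.87% of the cells and 2.40% of all transcripts, and yet 38.6% of hsp70l, 34.8% of hsp70.3 and 14.9% of HSP90AA1 transcripts. The 4 cells with the highest induced share, from 5.82% down to 2.49%, were all in cluster 4. None of these 4 held a transcript of the pigment markers DCT and pmela, which made up 0.650% of the cluster's transcripts. The name of pigment cell is therefore not shown for them.

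In cluster 7, hsp70l was at 2652 and 1070 CPM of non-globin transcripts and hsp70.3 at 3218 and 2223 CPM on plates 20 and 21 (7 cells each). On each plate 2 cells held most of its hsp70l transcripts, 92.53 of 145.67 and 56.2 of 68.21. Without the 2 leading cells of each gene, hsp70l was at 1677 and 427 CPM and hsp70.3 at 3479 and 1390 CPM. In cluster 4, hsp70l was at 972 CPM on plate 20, from only 10 transcripts in 9 cells, 7 of them in 2 cells. On plate 21 it was at 16549 CPM, where the cluster had 5 cells and 2 of them held 169.8 of its 190.8 hsp70l transcripts. In cluster 5 (185 cells, 178 of them on plate 21) hsp70l was at 18.3 CPM on plate 21. Its 21.2 CPM on plate 20 rested on 1 transcript in 7 cells. Cluster 1 (49 cells) was named macrophage-like by its leading genes, and held 0.269% macrophage and 0.462% epidermis marker transcripts. It had 672 CPM of hsp70l on plate 20 (249 CPM without wells of over 5% muscle or epidermis transcripts). On plate 21 it had 189 CPM, where 2 cells held 17.02 of 18.02 transcripts. Levels of hsp70l were lower in cluster 6 (40 cells, with 6.11% neutrophil marker transcripts), at 74.02 and 74.2 CPM, from only 9 and 10 transcripts. HSP90AA1 was at 1929 and 2485 CPM in cluster 6, above its 648 and 785 CPM in cluster 3, the largest cluster with 207 cells. Clusters 3 and 5 were each mostly from 1 plate, so that differences between them and differences between the plates cannot be told apart. These levels are a description of clusters and were not tested.

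**Figure D3:**
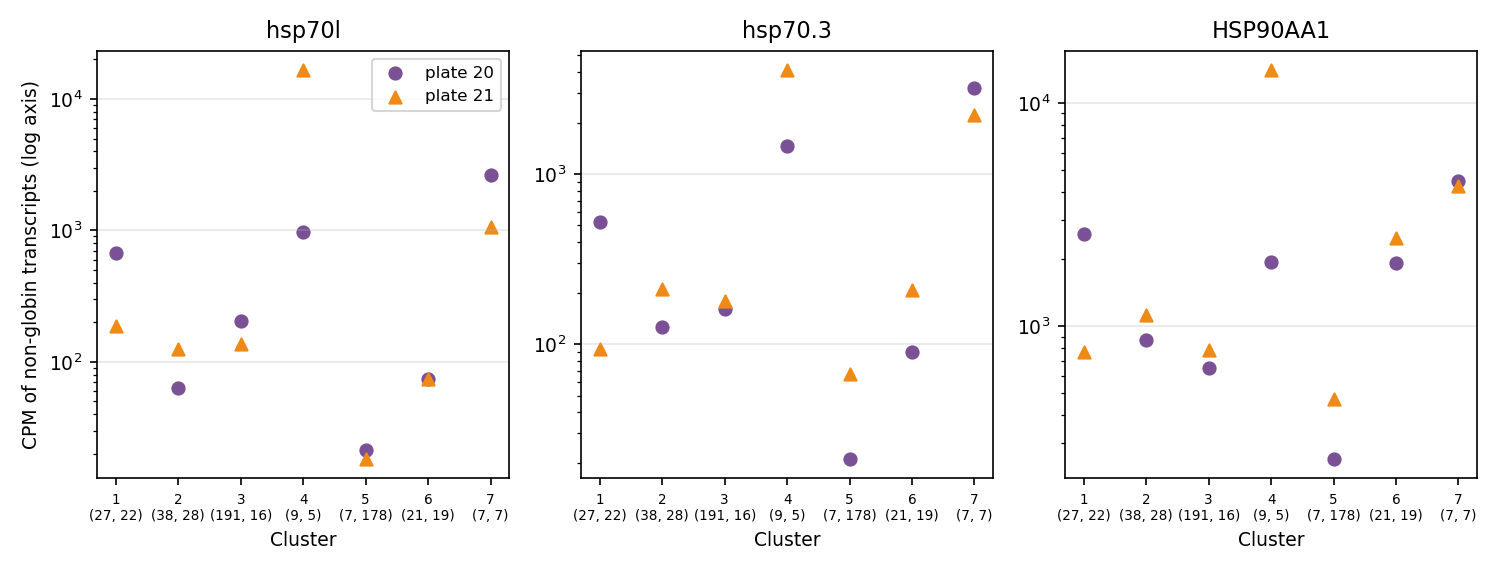
Level of hsp70l, hsp70.3 and HSP90AA1 in each of the 7 cell clusters, in CPM of non-globin transcripts on a log axis (circles, plate 20; triangles, plate 21), with the cells on plates 20 and 21 in brackets. Clusters 4 and 7 have the highest hsp70l on both plates, up to 16549 CPM, with most of these transcripts in 2 cells per cluster and plate.

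Among constitutive genes, HSPA8 ran from 3808 CPM (cluster 3, plate 21) to 7632 CPM (cluster 6, plate 20). The TRiC subunits summed to 4281 and 3507 CPM in cluster 3 and to 4101 and 4425 CPM in cluster 5, against 2205 and 2077 CPM in cluster 6. Clusters 4 and 7 held 2.12% and 3.23% of double cells, against 10.8% and 6.74% of single cells. Without them the mean induced share was 0.131% and 0.0992% in double cells, against 0.181% and 0.161% in single cells, and the difference between the classes became −0.0564 percentage points on average, compared with −0.0933 with them. This setting was chosen after seeing the data.

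Several pairs of members of the same class were correlated across cells. The correlation of hsp70l with hsp70.3 was 0.44 over 300 cells of plate 20 and 0.53 over 275 cells of plate 21 (Spearman), that of HSPA8 with HSP90AB1 0.56 and 0.59, that of HSPD1 with HSPE1 0.39 and 0.47, and that of CCT6B with CCT4 0.22 and 0.30. The induced share was correlated with that of immediate-early genes at 0.43 and 0.44, and at 0.04 and 0.09 with the constitutive share. Immediate-early genes respond within minutes to stress and stimulation, but the 25 summed here also included UBB, ubb, mcl1a and mcl1b. UBB alone was at 732 and 757 of their 2387 and 2118 CPM in double cells. In single cells it was at 1025 and 866 of 2667 and 2184 CPM. The correlation without these genes was not computed. The correlation of the induced share with depth was −0.20 and −0.29. The TRiC share was correlated with that of proteasome genes at 0.58 and 0.52. Cells of 1 plate share a library and differ in depth, so these values are descriptions only.

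The comparison of double with single cells tested 58 members, 8 of them induced and 50 constitutive; the filter on low counts removed the others. Of 8488 genes tested, 0% were called by edgeR at an adjusted p under 0.05, and none of the members was called, although 724 genes and 5 members had an unadjusted p under 0.05. With DESeq2, 32 genes were called and again no member. The plate was a block in the fit, which had 1 residual degree of freedom, and the labels do not say whether the plates stem from different animals. The p-values therefore rest on how far the difference between the classes varied between the 2 plates, and on variation pooled over genes. That variation between plates may be technical.

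The induced genes had mostly negative folds, with 6 of 8 below 0 and a median log2 fold of −0.33, against 0.01 over all genes tested. This median was −0.76 without plate 20 and −0.24 without plate 21. It was −1.07 without the largest well and −0.95 without wells rich in muscle or epidermis transcripts, both over 7 genes. The lowest p among members was that of hsp70.3, with a log2 fold of −0.75 ± 0.18 (SE; edgeR adjusted p = 0.375), followed by hsp70l at −0.69 ± 0.18 (adjusted p = 0.450). HSP90AA1 had −0.29 ± 0.12 (adjusted p = 0.592) and hsp70.1 −0.65 ± 0.36 (adjusted p = 0.705). Their folds were below 0 on both plates, at −0.96 and −0.54 for hsp70.3, −0.46 and −0.92 for hsp70l, and −0.37 and −0.20 for HSP90AA1. By contrast hsp90aa1.1 was at 2.70 and −2.23 and HSPB1 at 2.33 and −2.69 on plates 20 and 21, with all wells included. Muscle markers also had opposite signs on the 2 plates, as given above. Without wells rich in muscle or epidermis transcripts, hsp90aa1.1 was lower in double cells on both plates. It was then at 8.93 and 2.40 CPM in double cells, against 11.3 and 9.03 CPM in single cells. HSPB1 kept opposite signs, at 6.38 and 2.88 CPM in double cells against 5.12 and 21.5 CPM in single cells. The part of muscle transcripts in these folds was not tested.

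Wells rich in muscle or epidermis transcripts touched this result. When the 9 wells with over 5% of transcripts from either marker list were left out, which held 14.2% and 0.942% of the transcripts of double cells, against 3.20% and 5.41% of those of single cells, 107 of 8101 genes were called (1.32%). Among them were hsp70l, lower in double cells at −1.12 (edgeR adjusted p = 0.00899), and hsp70.3, lower at −0.93 (edgeR adjusted p = 0.0124). In that setting hsp70l was at 77.9 and 91.02 CPM in double cells, against 164 and 187 CPM in single cells. hsp70.3 was at 131 and 109 CPM in double cells, against 253 and 189.9 CPM in single cells, so for both genes the classes did not overlap. Leaving out the largest well alone, hsp70l had −1.37 and hsp70.3 −0.88, and neither was called (edgeR adjusted p = 0.181 and 0.247). With no filter on low counts, 1.88% of genes and 5 members were called. These were hsp70.3 and HSPA2 (an HSP70 of the testis in human), lower in double cells, and hspa1b, hspb9 and HSPG2, higher in double cells. The higher 3 rested on the largest well, which held 98.6%, 97.7% and 97.1% of their transcripts in double cells of plate 20, and without it each was at 0.634 CPM there.

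The constitutive members were spread around 0, with 28 of 50 above it and a median log2 fold of 0.06 (0.20 without plate 20 and −0.0012 without plate 21). TRiC subunits lay between −0.13 and 0.07, and HSPA8 had 0.09 ± 0.09 and HSP90AB1 0.16 ± 0.09 (SE; edgeR adjusted p = 0.862 and 0.714). ER members had the highest median, 0.45 over 9 genes, with 5 above and 4 below 0. HSP90B1 was at 146 and 145 CPM in double and at 91.1 and 104 CPM in single cells, a log2 fold of 0.56 ± 0.18 (edgeR adjusted p = 0.526). The mitochondrial J protein gene DNAJA3 had 0.72 ± 0.28 and HSPA2 −1.35 ± 0.49 (edgeR adjusted p = 0.575 and 0.557).

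**Figure D4:**
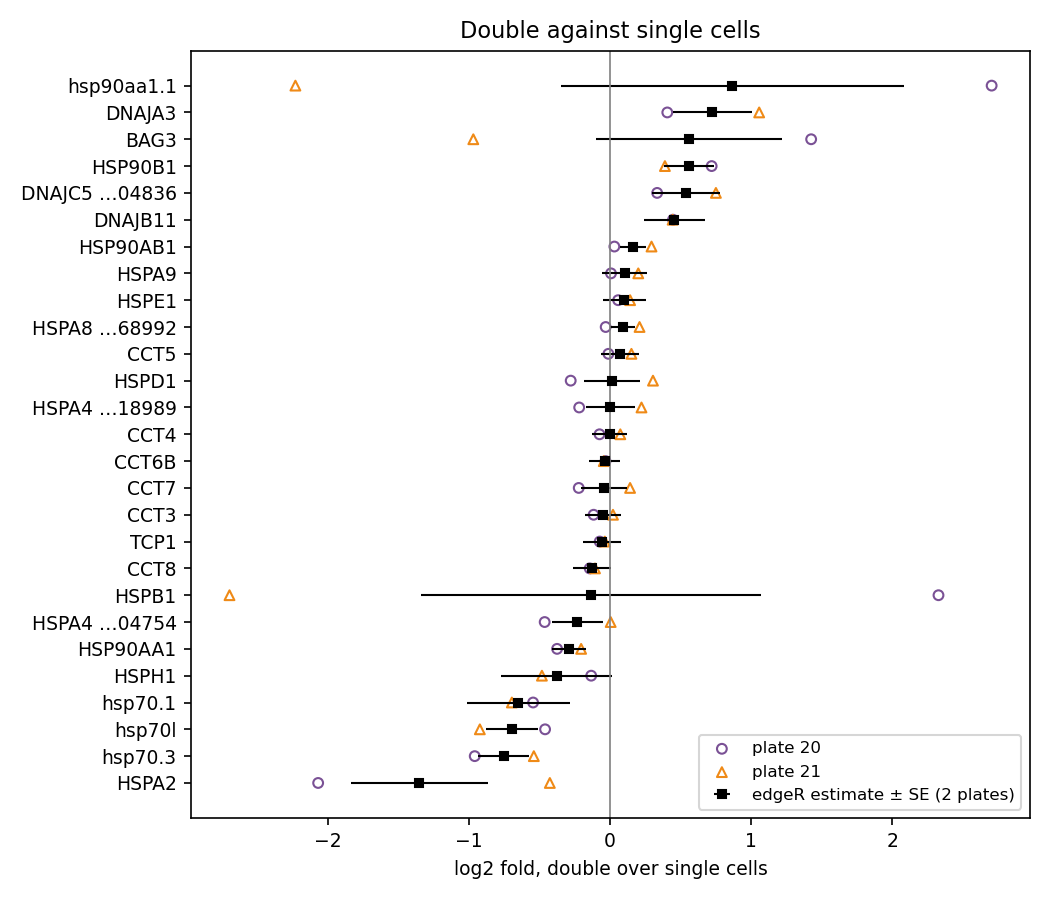
log2 fold, double over single cells, of tested members that were induced, had a mean of at least 100 CPM or a low unadjusted p. Shown are the edgeR estimate with its SE over 2 plates (black) and the fold within each plate (circles for plate 20, triangles for plate 21). hsp70.3 and hsp70l lie below 0 on both plates, and hsp90aa1.1 and HSPB1 have opposite signs on the 2 plates, with all wells included.

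Genes that work with the members showed no call either. Of the ER folding and stress genes, 17 of 20 tested were above 0 with a median of 0.33, led by the disulfide isomerase gene PDIA4 at 0.70 ± 0.19 and the calnexin gene CANX at 0.70 ± 0.20 (SE; edgeR adjusted p = 0.450 and 0.488). HSP70 and HSP90 co-chaperones had a median of −0.09 over 17 genes, with SERPINH1, the collagen chaperone HSP47, lowest at −1.78 ± 0.32 (edgeR adjusted p = 0.265). SERPINH1 was at 14.8 and 9.53 CPM in double and 65.5 and 23.5 CPM in single cells, and stroma markers were also lower in double cells on both plates; their part was not tested. Without the 9 wells SERPINH1 was called lower at −2.45 (edgeR adjusted p = 0.0211), and with no filter on low counts at −1.74 (edgeR adjusted p = 2.38e-05). Prefoldin had a median of −0.03 over 9 genes, mitochondrial proteostasis genes 0.04 over 7 and proteasome genes −0.09 over 33. The heat shock factor gene HSF2 and the regulator genes HSBP1 and hsbp1b had a median of −0.03 over these 3. Immediate-early genes had a median of −0.12 over 20 genes, with JUN at −0.96 ± 0.22 and the nuclear receptor gene NR4A1 at 0.81 ± 0.20 (SE; edgeR adjusted p = 0.374 and 0.394). Globin genes were below 0 in 8 of 8 tested, epidermis markers in 8 of 8 and stroma markers in 4 of 4. Neutrophil markers were above 0 in 5 of 5 tested, macrophage markers in 5 of 5 and lymphoid markers in 4 of 4. The part of all these genes in the folds of the induced genes was not tested.

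The second comparison set cells rich in globin transcripts, which mark the red cell lineage, against all other cells. Cells with over 5% of their transcripts from the 12 globin genes were called globin-rich, a rule that uses no member, and were 41 double and 40 single cells on plate 20 and 36 double and 41 single cells on plate 21. The other cells were 148 double and 71 single on plate 20 and 150 double and 48 single on plate 21. Globin genes were left out of the sums, and levels are CPM of non-globin transcripts. The 4 units of plate and sort class were a block in the fit, which left 3 residual degrees of freedom, and they come from only 2 plates. Of 4695 genes tested by edgeR, 38.1% were called, 18.4% higher and 19.7% lower in globin-rich cells.

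Of 40 members tested, 17 were called (42.5%), 4 higher and 13 lower. The filter removed the other 50, so these counts describe the more abundant members only, and the share called is near that of all genes. By DESeq2, 7 of 89 members were called beside 1269 of 19695 genes. Without plate 20, edgeR called 9 of 40 members and 1047 of 4903 genes. Without plate 21 it called 5 of 41 members and 660 of 5159 genes. The median log2 fold was −0.19 over 37 constitutive members, against 0.02 over all genes tested. The share of the constitutive genes was 1.31% ± 0.0641 of non-globin transcripts in globin-rich cells and 1.66% ± 0.105 in the other cells (SD, n = 4 units), with ranges that did not overlap. The induced share was 0.144% ± 0.0751 in globin-rich and 0.137% ± 0.0211 in the other cells, and its ranges overlapped.

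The cytosolic HSP90 and 4 mitochondrial chaperones were lower in globin-rich cells. HSP90AB1 was at 2916, 3214, 3224 and 3174 CPM in globin-rich cells, against 4794, 5131, 5555 and 4547 CPM in the other cells, listed for double and single cells of plate 20 and then of plate 21. The 2 groups did not overlap, and the log2 fold was −0.71 ± 0.06 (SE; edgeR adjusted p = 1.32e-06). HSPE1 was at 98.6, 95.5, 108 and 100.1 CPM in globin-rich cells, against 222, 245, 269.7 and 282 CPM in the other cells (−1.38 ± 0.14; edgeR adjusted p = 4.29e-06). Its partner HSPD1 was at 86.6, 92.01, 156 and 89.4 CPM in globin-rich cells, against 239, 341, 301 and 300.2 CPM in the other cells (−1.50 ± 0.16; edgeR adjusted p = 7.96e-06). These 3 genes were called lower under every alternative that tested them (16 for HSP90AB1, 15 each for HSPD1 and HSPE1), including without either plate.

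HSPA9, the mitochondrial HSP70 that also takes part in iron-sulfur cluster assembly, averaged 120.4 ± 14.8 CPM in globin-rich and 213 ± 11.4 CPM in the other cells (SD, n = 4; log2 fold −0.86 ± 0.14 SE, edgeR adjusted p = 0.000291). DNAJA3, its J protein, was lower at −1.14 ± 0.31 (edgeR adjusted p = 0.0109) and in 3 of 4 units, while the mitochondrial import J proteins DNAJC15 and DNAJC19 had −0.13 ± 0.32 and 0.19 ± 0.29 and were not called. In all, 4 of 6 mitochondrial chaperones tested were called lower and none higher, beside 19.7% of all genes lower and 18.4% higher. Their median was −0.998. DNAJA3 was not called in 3 of its 12 alternatives. HSPA8 was lower as well, with 4080 ± 291 CPM in globin-rich and 4919 ± 384.98 CPM in the other cells (SD, n = 4; −0.31 ± 0.06 SE, edgeR adjusted p = 0.00113). HSPA14, a ribosome-bound HSP70, and DNAJC2, its J protein partner, were lower at −0.70 ± 0.26 and −0.97 ± 0.34 (edgeR adjusted p = 0.0473 and 0.0384). HSPA14 was not called in 6 of 15 alternatives, and without plate 20 its fold was −0.19 (edgeR adjusted p = 0.672). DNAJC2 was not called in 5 of 15 alternatives, among them each plate left out, and its fold was −0.07 (edgeR adjusted p = 0.872) with a globin limit of 2% and −3.07 with one of 10%.

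No TRiC subunit was called in the main test. The 7 tested had log2 folds between −0.27 and 0.11 and a median of −0.16, and 2 had an unadjusted p under 0.05. CCT4 was called lower in 3 of 16 alternatives, with the lowest p without the 9 wells (−0.30, edgeR adjusted p = 0.0115), and CCT3 and CCT5 (lower) and TCP1 (higher) in 1 alternative each. CCT6B was at 1009 ± 49.5 CPM in globin-rich and 969 ± 59.3 CPM in the other cells and TCP1 at 493 ± 72.8 CPM in globin-rich and 444 ± 38.4 CPM in the other cells (SD, n = 4). All TRiC members summed to 0.390% ± 0.0332 of non-globin transcripts in globin-rich and 0.410% ± 0.0294 in the other cells, with overlapping ranges. Mitochondrial chaperones summed to 0.0405% ± 0.00588 in globin-rich and 0.0853% ± 0.00666 in the other cells, with no overlap.

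Other members split by gene. In the ER, HSP90B1 was lower at 71.7, 88.5, 80.3 and 94.7 CPM in globin-rich cells, against 168, 98.04, 171 and 123 CPM in the other cells (log2 fold −0.81 ± 0.20 SE, edgeR adjusted p = 0.00665), although it was not called by DESeq2 (adjusted p = 0.0725). The 2 rows named DNAJB9, an ER J protein in human, had opposite signs. ENSDARG00000016886 was at 8.24 ± 5.67 CPM in globin-rich and 36.8 ± 12.1 CPM in the other cells (−2.27 ± 0.39, edgeR adjusted p = 0.000408), and ENSDARG00000052072 at 78.6 ± 28.3 CPM in globin-rich and 39.8 ± 10.2 CPM in the other cells (0.95 ± 0.22, edgeR adjusted p = 0.00394). Among cytosolic and nuclear J proteins dnaja1 (0.77 ± 0.21), dnajb2 (0.97 ± 0.30) and DNAJC9 (0.63 ± 0.18) were higher and DNAJA2 (−0.93 ± 0.25) and DNAJC5 (−0.98 ± 0.30, ENSDARG00000004836, a vesicle J protein) lower, with edgeR adjusted p from 0.00989 to 0.0220. These 5 J proteins were not called by DESeq2.

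Of the induced members, hsp70l was at 41.8, 441, 33.8 and 100.2 CPM in globin-rich cells, against 261, 269, 124 and 257 CPM in the other cells, in the same order of units. It was lower in 3 of 4 units and higher in single cells of plate 20. A globin-rich cell of that unit (7.21% globin) alone held 64.5 hsp70l transcripts, and the level without this cell was not computed. The log2 fold of hsp70l was −1.03 ± 0.38 (SE; edgeR adjusted p = 0.0480). It became −0.16 (edgeR adjusted p = 0.797) without the 9 wells rich in muscle or epidermis transcripts. Without the largest well it was −0.76 (edgeR adjusted p = 0.0809), so the call was lost in both settings. It was also not called by DESeq2 (adjusted p = 0.200) or without plate 21 (edgeR adjusted p = 0.570). hsp70.3 and HSP90AA1 had 0.31 ± 0.17 and 0.19 ± 0.15 and were not called (edgeR adjusted p = 0.155 and 0.369). These folds depended on the setting: without the 9 wells hsp70.3 was called higher at 0.79 (edgeR adjusted p = 0.00267), and with 4 sums by plate both were called higher, at 0.53 for hsp70.3 and 0.29 for HSP90AA1 (edgeR adjusted p = 9.58e-05 and 0.00138). With a globin limit of 2% both were called lower, at −0.72 and −0.43 (edgeR adjusted p = 0.0187 and 0.0207). HSP90AA1 was also called higher with a limit of 10% (0.66, edgeR adjusted p = 0.00632) and lower with each cell thinned to 500 transcripts (−0.76, edgeR adjusted p = 0.0123).

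**Figure D5:**
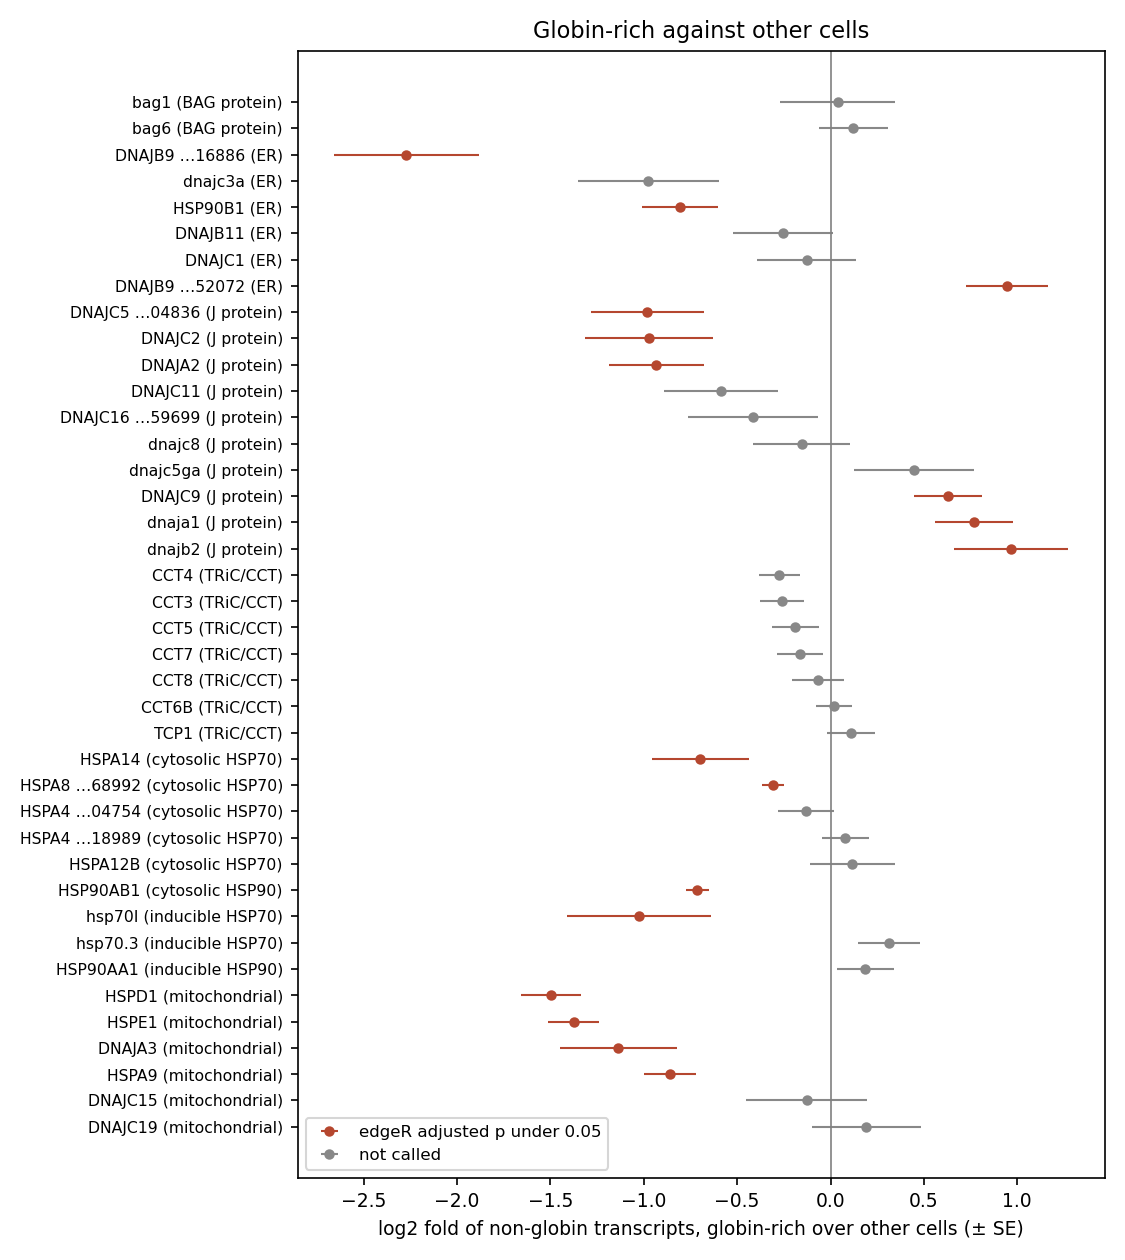
log2 fold of globin-rich over other cells, with SE, for the 40 members tested, grouped by role (red-brown, edgeR adjusted p under 0.05; grey, not called). The mitochondrial chaperones HSPD1, HSPE1, DNAJA3 and HSPA9 and the HSP90 gene HSP90AB1 lie below 0, and the TRiC subunits lie between −0.27 and 0.11.

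Proteostasis genes outside the members were measured in the same fit, where 18.4% of all genes were called higher and 19.7% lower. Of 33 proteasome genes, 16 were higher in globin-rich cells and none lower (median 0.38), among them PSMD1 at 0.60 ± 0.13 and PSMD12 at 0.65 ± 0.15 (SE; edgeR adjusted p = 0.00219 and 0.00394). Of 9 prefoldin genes, whose products hand actin and tubulin to TRiC, 5 were lower and none higher (median −0.67), with PFDN5 at −2.01 ± 0.19 (edgeR adjusted p = 2.62e-06). ER folding and stress genes were lower in 7 of 15 and higher in 1 (median −0.82), with HERPUD1 at −1.31 ± 0.20 and HYOU1 at −1.17 ± 0.18 (edgeR adjusted p = 0.000143 and 0.000198). Of 14 co-chaperones 2 were higher and 1 lower, with FKBP8, a mitochondrial outer membrane immunophilin in human, at 1.11 ± 0.28 (edgeR adjusted p = 0.00689). Mitochondrial proteostasis genes were lower in 2 of 7, and heat shock factor and regulator genes in 0 of 3. Called in either direction were 48.5% of proteasome, 55.6% of prefoldin and 53.3% of ER folding and stress genes, beside 38.1% of all genes. Co-chaperones with 21.4% and mitochondrial proteostasis genes with 28.6% lay below that share.

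Immediate-early genes were lower in 13 of 16 and higher in 1 (median −1.45), so 87.5% were called, beside 38.1% of all genes. Neutrophil markers were lower in 5 of 5 tested, muscle markers in 7 of 7, epidermis markers in 5 of 5 and stroma markers in 3 of 3, and erythroid markers were higher in 5 of 5. Their part in the folds of the members was not tested. In such sums, fewer cells of a type and less RNA per cell cannot be told apart.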

How the data were processed

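The authors deposited expected counts (estimated counts of transcripts), 1 table per plate with a value per gene and well, made from reads aligned by BWA to Zv9, per the submitters' processing notes. Other steps were not given in the sources. Plate layouts gave each well's sort class. Of 1273614 values above 0, 100% matched a whole number of molecular identifiers corrected for collisions among 4096, within 0.01; values were rounded after summing. Both tables number wells alike, so shared well names are by design. Of 19955 gene IDs, 15742 (78.9%) had a name, many of them those of human genes. No sequences or coordinates are given.

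The members, their classes and the gene lists were chosen with earlier results of these data known. Wells with at least 500 transcripts were summed per plate and class, and undefined wells were left out. The quasi-likelihood F test of edgeR 4.0.16 (R 4.3.3; two-sided, TMM scaling, filterByExpr, Benjamini-Hochberg) was run over all genes with the plate or the plate and class unit as a block; the SE of a fold came from its F value. In simulated counts of 8488 genes for double against single cells, 6% of the 2-fold and 51% of the 4-fold changes were called, with 2 false calls. For globin-rich against other cells (4695 genes) these shares were 78% and 92%, with 9 false calls. All genes were drawn with a common dispersion (0.0787 and 0.0252) and without outlying wells, so shares in the real counts may differ. Folds within a plate used TMM-scaled CPM plus 1. Cells were clustered with scanpy 1.11.5 on 10000 transcripts per cell, 2000 variable genes, 20 components, 15 neighbours and Leiden resolution 0.8, without members, mitochondrial genes and genes with p under 0.05 between classes; clusters with over 90% of cells from 1 plate stayed unnamed. No doublet caller was run on sorted wells.

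Named genes were the induced members, the 15 most abundant members, the 5 of smallest p in each direction and comparison, the most abundant of each role, and up to 3 list genes with p under 0.05; HSPA14, DNAJA2, DNAJC2, DNAJC15, DNAJC19, cct2 and DNAJC5B were named after their values were seen. Alternatives were DESeq2 1.42.0 and its size factors, no block, no filter on low counts, other cell minimums, thinning, whole identifier counts, wells, cells or plates left out, another reading of the plate 21 layout and other globin limits.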

Additional observations from a re-analysis of the deposited data

Results flagged for a closer look

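Of 60 groups of 4 units checked (30 members in globin-rich and in other cells), 6 had a unit far from the other 3 in CPM of non-globin transcripts, and chance gives about 1 in 20. In globin-rich cells these were hsp70.3 at 496 and hsp70l at 441 CPM in single cells of plate 20, both above the other units. A cell of that unit alone held 35.15 hsp70.3 and 64.5 hsp70l transcripts. HSP90AB1 at 2916 CPM in double cells of plate 20 was below the other units, and HSPD1 at 156 CPM in double cells of plate 21 above them. In the other cells, dnaja1 was highest at 55.6 CPM in single cells of plate 20 and hsp70l lowest at 124 CPM in double cells of plate 21. The 16 undefined wells with at least 500 transcripts, which entered no comparison, held 335 induced transcripts, or 0.266% of their 126189 transcripts, and 1.62% constitutive transcripts.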

How the results depend on the processing

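Double against single cells gave 0 genes and 0 members called in the main test. It gave 32 of 19707 genes with DESeq2, and 371 of 19707 genes and 5 of 89 members with no filter on low counts. With each cell thinned to 500 transcripts 9 of 880 genes were called. Without muscle or epidermis wells these were 107 of 8101 genes and 2 of 53 members, and with plate 21 read down columns 3 of 8414 genes. With no replicate block 0 genes and 0 members were called, and no per-plate test was possible with 1 sum per class. Globin-rich against other cells gave 1789 of 4695 genes and 17 of 40 members tested in the main test. It gave 2684 of 19695 genes with no filter, and 81 of 243 genes and 3 of 6 members when thinned. With 4 sums by plate, 3274 of 8586 genes and 27 of 58 members were called. A globin limit of 10% gave 986 of 4306 genes, and DESeq2 gave 1269 of 19695 genes and 7 of 89 members. Without plate 20, 1047 of 4903 genes and 9 of 40 members were called, and without plate 21, 660 of 5159 and 5 of 41. With no replicate block, 1706 of 4695 genes and 15 of 40 members were called.

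The induced share, double minus single, was −0.0933 points in the main setting. It was −0.0770 at a minimum of 250 transcripts, −0.0771 without muscle or epidermis wells, −0.0292 for summed transcripts, −0.141 without globin-rich cells and −0.0564 without clusters 4 and 7. The constitutive share was 0.197, and 0.0613 with plate 21 read down columns. The share of cells with an induced transcript was 3.05 points higher in double cells, −3.56 when thinned to 500 and 1.67 unthinned. The cause of these shifts was not tested. The constitutive share of non-globin transcripts had a mean range of 0.489 points between the 4 of 7 clusters with enough cells on both plates. This range was 0.442 points at Leiden resolution 0.5 and 0.274 at 1.2, each with 3 such clusters. On plate 20 it fell from 0.315 to 0.116 points at 1.2. These shifts of the mean range were smaller than its SD of 0.246, which rests on only 2 plates.

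For named members and list genes, log2 folds changed sign in 52 double against single values, and 17 kept their sign and gained a call. Another 548 kept their sign and, where a p-value existed, their side of the threshold. Of globin-rich against other values, 20 changed sign and 593 kept both sign and side of the threshold. A further 81 kept their sign and lost the call, and 11 gained one. Between double and single cells, CCT4 became 1.6e-05 and HSPB1 0.13 with no replicate block, CCT4 0.039 and CCT6B 0.0018 with no filter, CCT4 0.0014 with whole identifier counts, and HSPB1 0.046 at a minimum of 1000 transcripts. HSPA4 (ENSDARG00000018989) became −0.0071 with DESeq2 size factors. When thinned, CCT7, CCT8, CCT4, CCT3 and CCT6B became 0.093, 0.089, 0.088, 0.40 and 0.11, and CCT5 and that HSPA4 −0.016 and −0.52. Without globin-rich cells, HSPA9, DNAJA2, that HSPA4, CCT5, HSPD1, HSPE1 and dnajb2 became −0.065, −0.049, −0.083, −0.093, −0.24, −0.082 and 0.28. Without muscle or epidermis wells, hsp90aa1.1, BAG3, HSPD1 and CCT4 became −0.98, −1.57, −0.0039 and 0.018. Without the largest well, hsp90aa1.1, BAG3, CCT4 and DNAJC9 became −1.31, −1.53, 0.019 and 0.0017. With plate 21 read down columns, that HSPA4, CCT5, HSPD1, HSPE1, HSPA8 and dnajb2 became −0.18, −0.027, −0.16, −0.084, −0.020 and 0.00067.

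With plate 20 and then plate 21 left out, double against single folds were −0.92 and 1.44 for BAG3, 0.069 and −0.10 for CCT3, 0.12 and −0.063 for CCT4, 0.0036 and −0.020 for CCT6B, 0.19 and −0.21 for CCT7, 0.11 and −0.61 for DNAJB9 (ENSDARG00000052072), −0.18 and 0.12 for DNAJC2, 0.21 and −0.24 for DNAJC9, 0.052 and −0.45 for HSPA4 (ENSDARG00000004754), 0.27 and −0.21 for HSPA4 (ENSDARG00000018989), 0.26 and −0.019 for HSPA8, −2.64 and 2.34 for HSPB1, 0.35 and −0.27 for HSPD1, 0.011 and −0.061 for TCP1, 0.080 and −0.19 for dnaja1, 0.31 and −0.46 for dnajb2, and −2.18 and 2.71 for hsp90aa1.1. Globin-rich against other folds were 0.063 and −0.032 for CCT6B, −0.34 and 0.20 for CCT8, −0.13 and 0.50 for HSP90AA1, −0.40 and 0.12 for HSPA4 (ENSDARG00000004754), −0.0056 and 0.16 for HSPA4 (ENSDARG00000018989), and 0.23 and −0.0036 for bag6.

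Between globin-rich and other cells, CCT8 became 0.041 with 4 sums and 0.0057 with plate 21 read down columns. When thinned, CCT3, CCT6B and HSP90AA1 became 0.12, −0.61 and −0.76. With a limit of 10%, HSPA4 (ENSDARG00000004754), DNAJB11, TCP1, CCT6B and bag6 became 0.21, 0.47, −0.22, −0.072 and −0.28, and with 2%, CCT8, CCT5, hsp70.3 and HSP90AA1 became 0.12, 0.064, −0.72 and −0.43. With so few plates and sparse counts, small folds of low members could not be resolved.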
